A study of Mus musculus with 8 samples.

Results

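Astrocyte marker genes were followed in ribosome-associated mRNA that had been pulled down from PV+ interneurons. The 10 genes, *Gfap*, *Aqp4*, *Slc1a2*, *Slc1a3*, *Aldh1l1*, *Glul*, *S100b*, *Sox9*, *Apoe* and *Clu*, were chosen by name as markers of astrocytes and not by their values. Earlier results of these data were known at that time. All 10 were present among the 45706 genes of the deposited tables. Each of them had enough reads to be among the 17495 genes tested.

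Astrocytes are the glial cells that surround synapses and contact blood vessels in the cortex. They take up glutamate through the transporters GLT-1 and GLAST, convert it to glutamine, buffer potassium, move water at their endfeet on vessels and supply lipids to neurons. After injury or inflammation they can become reactive, a state in which the filament protein GFAP is raised. Astrocytes are not neurons, and their mRNA is no target of a pulldown directed at PV+ interneurons.

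Translating ribosome affinity purification recovers mRNA bound to ribosomes that carry a tag, here haemagglutinin (HA) on the ribosomal protein RPL10A. Mice of the genotype PvalbFlp/+;Neurod6Cre/+ received an adeno-associated virus (AAV) for HA-RPL10a and myc-hM3Dq, in which the neuronal human synapsin promoter drives the tagged protein and the activating receptor hM3Dq wherever Flp is present and Cre is absent. Both groups carried the same alleles and the same virus, injected into the primary somatosensory cortex (S1) of pups. The CNO samples came from mice given 5 injections of CNO, the ligand of hM3Dq, at 1 mg/kg over 48 h. The vehicle samples came from mice given the solvent on the same schedule. The age range given for mice treated with vehicle or CNO was 42 to 70 days. Each group had 4 samples, numbered 1 to 4 in the labels, and each sample pooled tissue of 4 brains. No library of unpurified cortex was analysed here, so that enrichment or depletion of astrocyte mRNA by the pulldown could not be measured.

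Between 44064161 and 49413273 reads were counted on genes in each sample, and 3 reads, taken as the smallest detectable level, corresponded to 0.0607 to 0.0681 CPM, the counts relative to the library total. Only counting error is covered by this floor, since PCR copies do not count separate molecules. In vehicle sample 1, *Pvalb*, which encodes the calcium-binding protein that defines PV+ interneurons, had a level of 300.1 TPM (reads per unit of transcript length on a scale shared by all samples), against 820 to 1160.4 TPM in the other 7. This sample therefore stands apart for interneuron mRNA, and fold changes that it moved are also given without it. Markers of other cells were present in every group. The summed TPM of 10 oligodendrocyte markers was 588 to 1056 in CNO and 813 to 1044 in vehicle, that of 10 microglia markers 86.5 to 135 and 112 to 152, that of 10 endothelial markers 102 to 229.8 and 146 to 187, and that of 9 pyramidal cell markers 1369 to 1891 and 1547 to 2213.

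The astrocyte markers were detected in all 8 samples at levels that spanned more than an order of magnitude. *Apoe*, the main lipid carrier of the brain, had the highest mean at 321 ± 53.1 TPM (SD, n = 8). *Clu*, a secreted chaperone, followed at 173 ± 16.0 TPM, and *Glul*, the glutamine synthetase gene, at 125 ± 16.8 TPM. The glutamate transporters *Slc1a3* (GLAST) and *Slc1a2* (GLT-1) averaged 79.1 ± 19.0 and 52.3 ± 18.8 TPM. *Gfap*, the intermediate filament gene, averaged 43.5 ± 7.80 TPM, and *S100b*, which encodes a calcium-binding protein, 24.7 ± 2.75 TPM. The lowest were *Aldh1l1*, a folate enzyme used to label astrocytes, at 19.8 ± 4.65 TPM, the water channel gene *Aqp4* at 13.9 ± 1.86 TPM and the transcription factor gene *Sox9* at 13.4 ± 3.17 TPM. *Apoe* exceeded the level of 97.7% of the genes tested, whereas *Sox9* exceeded 49.9% of them.

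This order was not equally firm at each step. The ranges over the 8 samples were separate between *Apoe* and *Clu* and between *Gfap* and *S100b*. *Slc1a2* was above *Gfap* in 5 of 8 samples, and *Aqp4* was above *Sox9* in 5 of 8, so that the spread between samples did not separate either pair. *S100b* was above *Aldh1l1* in 7 of 8 samples. The other neighbours kept their order in 8 of 8 samples although their ranges overlapped.

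The 10 markers together reached 660 to 979 TPM in the CNO samples and 840 to 993 TPM in the vehicle samples, between 0.0660% and 0.0993% of all TPM. Their sum divided by the level of *Pvalb* was 0.646 to 1.19 in 7 samples and 3.31 in vehicle sample 1, where the sum was the highest of all and *Pvalb* the lowest. In bulk samples of this kind, fewer cells of a type and less RNA per cell cannot be told apart.

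**Figure D1:**
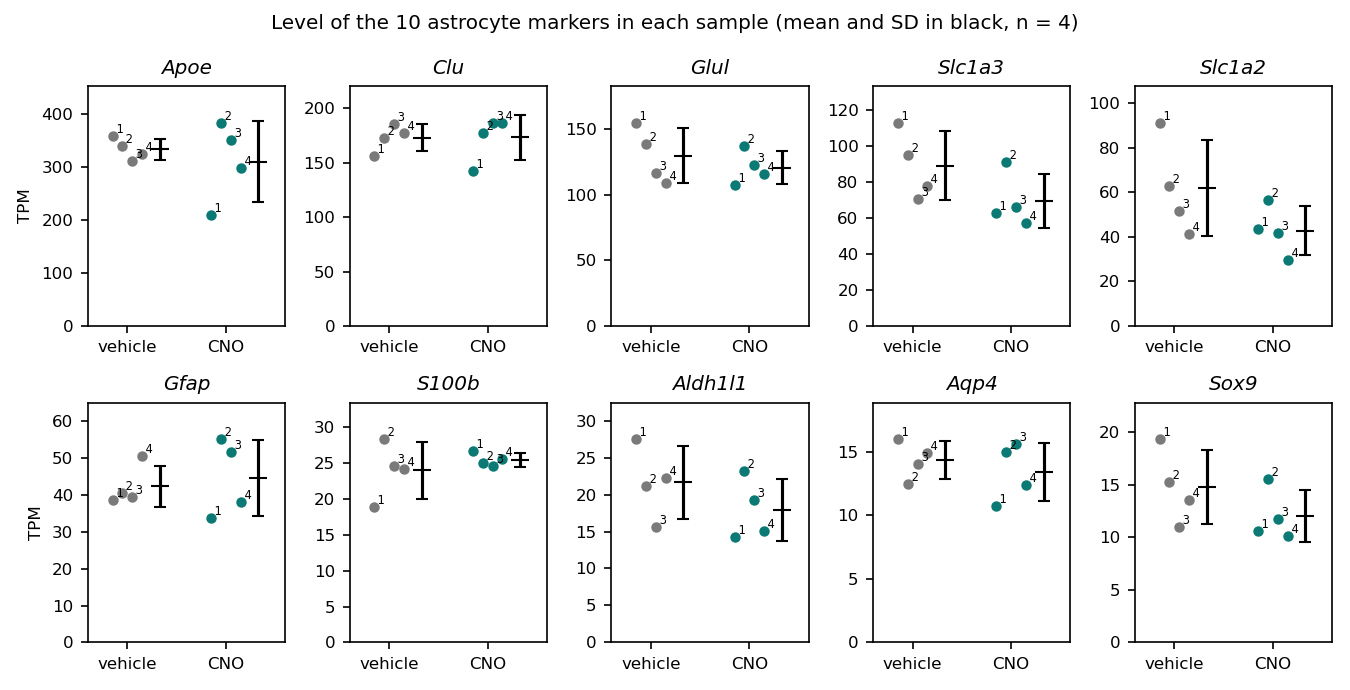
Level in TPM (y axis, from 0) of each of the 10 astrocyte markers in the 4 vehicle and 4 CNO samples, ordered by mean level. Points are samples with their replicate numbers, and the black mark is the group mean with its SD; the groups overlap for all 10 genes, and vehicle sample 1 is the highest for Slc1a2, Slc1a3, Glul, Aldh1l1, Aqp4 and Sox9 and the lowest for S100b.

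Treatment with CNO was compared with vehicle to ask how activating PV+ interneurons changes the mRNA on their ribosomes. None of the 10 astrocyte markers passed the test (edgeR quasi-likelihood test with Benjamini-Hochberg adjustment over 17495 genes, adjusted p between 0.817 and 0.971). Across all genes, 0 of 17495 (0.00%) were called at an adjusted p under 0.05. Before adjustment, 716 genes (4.09%) had a p under 0.05, and none of the 10 markers was among them. The groups did not overlap in TPM for 555 genes (3.17%), again with none of the markers. The estimates were above 0 for 3 markers and below 0 for 7, with a median log2 fold change of -0.043 against 0.0014 for all genes tested. Without vehicle sample 1 the log2 fold change was -0.11 for *Sox9*, -0.14 for *Slc1a2*, -0.13 for *Slc1a3*, -0.044 for *Aldh1l1*, 0.028 for *S100b* and 0.073 for *Gfap*. CNO sample 1 mattered as well: without it the estimates were above 0 for 5 markers and below 0 for 5, with a median of -0.0014, and that of *Slc1a3* was -0.097. The labels number the samples but do not say more of their origin than the pooling of brains, and the p-values measure the spread between these pools.

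The glutamate transporters had estimates below 0 that did not pass the test. *Slc1a2* (ENSMUSG00000005089, chr2:102658659-102790784, plus strand in GRCm38) encodes the transporter that clears most synaptic glutamate in the adult cortex. Its TPM values were 43.5, 56.4, 41.7 and 29.8 in CNO samples 1 to 4 and 91.4, 63.1, 51.5 and 41.3 in vehicle samples 1 to 4. CNO sample 4 was below every vehicle sample and no CNO sample was above vehicle samples 1 and 2, but the groups overlapped. The means were 42.8 ± 10.9 and 61.8 ± 21.6 TPM (SD, n = 4). The log2 fold change of the counts was -0.22 ± 0.11 (SE). The edgeR quasi-likelihood test gave p = 0.0748 (adjusted p = 0.817), and the exact permutation test of log2 CPM gave p = 0.0857. On the TPM values the exact permutation test gave p = 0.20. The smallest possible p of this permutation test for 4 against 4 samples is 0.0286.

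The size of the *Slc1a2* difference depended on the scale. On log2(TPM + 1) it was -0.49, and with an offset for transcript length, added after the values were seen, it was -0.45, with neither past the threshold. TPM divides the reads of a gene by the length of the transcripts to which they were assigned. That length, recovered here as counts divided by TPM and set relative to the geometric mean of the 8 samples, was 0.742 for *Slc1a2* in vehicle sample 1 and 0.853 in vehicle sample 2, and 1.24 in CNO sample 4 and 1.25 in vehicle sample 4. Its highest value was 1.68 times its lowest, against a median of 1.06 over all genes tested, and 3.96% of genes had a larger ratio. *Slc1a3* had a ratio of 1.30, *Glul* 1.24 and *Aldh1l1* 1.19, whereas each of the other 6 markers was at or under 1.06. The mean relative length of *Slc1a2* was 1.08 in CNO and 0.948 in vehicle, and both extremes lay in vehicle samples. GENCODE lists 12 transcripts for this gene, and their separate levels were not analysed here.

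*Slc1a3* (ENSMUSG00000005360, chr15:8634124-8710764, minus strand) encodes GLAST, the second glutamate transporter of astrocytes. Its levels were 62.7, 91.1, 66.2 and 57.1 TPM in CNO samples 1 to 4 and 113, 95.0, 70.3 and 77.4 TPM in vehicle samples 1 to 4. CNO samples 1, 3 and 4 were below every vehicle sample, and CNO sample 2 was above vehicle samples 3 and 4. The log2 fold change of the counts was -0.18 ± 0.12 (SE, edgeR adjusted p = 0.817), and on log2(TPM + 1) it was -0.35. *Glul* (ENSMUSG00000026473, chr1:153899944-153909723, plus strand) turns the glutamate taken up into glutamine. It was measured at 107, 137, 123 and 116 TPM with CNO and at 155, 139, 117 and 109 TPM with vehicle. CNO sample 1 was the lowest of all and the other CNO samples fell inside the vehicle range. Its log2 fold change was -0.06 ± 0.09 (SE, edgeR adjusted p = 0.868), and its reads are uncertain because 20.4% of its 31-base sequences are shared with other genes.

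The genes used to identify astrocytes were, like the transporters, highest in vehicle sample 1. *Aldh1l1* (ENSMUSG00000030088, chr6:90486427-90600203, plus strand) was at 14.2, 23.2, 19.2 and 15.0 TPM in CNO samples 1 to 4 and at 27.5, 21.2, 15.6 and 22.3 TPM in vehicle samples 1 to 4. CNO samples 1 and 4 were below all vehicle samples, and vehicle sample 3 was close to them. The log2 fold change was -0.15 ± 0.16 (SE, edgeR adjusted p = 0.822), and 11.4% of the sequence of this gene is shared with other genes. *Sox9* (ENSMUSG00000000567, chr11:112782224-112787760, plus strand) encodes a transcription factor that astrocytes keep through adult life. Its levels were 10.6, 15.5, 11.8 and 10.1 TPM with CNO and 19.3, 15.2, 11.0 and 13.6 TPM with vehicle. As for *Aldh1l1*, CNO samples 1 and 4 were the lowest, vehicle sample 1 was the highest, and the groups overlapped. The log2 fold change of -0.23 ± 0.15 (SE, edgeR adjusted p = 0.817) was the most negative of the 10.

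The filament and endfoot genes were lowest in CNO sample 1. *Gfap* (ENSMUSG00000020932, chr11:102887336-102900912, minus strand) was at 33.8, 55.2, 51.6 and 38.2 TPM in CNO samples 1 to 4 and at 38.5, 40.6, 39.4 and 50.7 TPM in vehicle samples 1 to 4. CNO samples 2 and 3 were above all vehicle samples, while CNO samples 1 and 4 were below all of them. The spread within CNO was therefore wider (SD 10.3 against 5.64 TPM), and the log2 fold change of 0.14 ± 0.15 (SE, edgeR adjusted p = 0.822) did not exceed it. Leaving out single samples moved that value between 0.045, without CNO sample 3, and 0.25, without CNO sample 1. *Aqp4* (ENSMUSG00000024411, chr18:15389496-15410982, minus strand) encodes the water channel of astrocyte endfeet. It was at 10.7, 15.0, 15.6 and 12.4 TPM with CNO and at 16.0, 12.5, 14.0 and 15.0 TPM with vehicle. CNO sample 1 was again the lowest, and the groups overlapped, with a log2 fold change of -0.03 ± 0.12 (SE, edgeR adjusted p = 0.952).

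The secreted lipid carriers were the most abundant markers. *Apoe* (ENSMUSG00000002985, chr7:19696109-19699188, minus strand) was at 208, 383, 350.4 and 297 TPM in CNO samples 1 to 4 and at 357, 338, 312 and 323 TPM in vehicle samples 1 to 4. The vehicle samples lay close together (SD 19.7 TPM), and the CNO samples held both the lowest value, in sample 1, and the highest, in sample 2 (SD 76.4 TPM). The log2 fold change was -0.02 ± 0.16 (SE, edgeR adjusted p = 0.971). *Clu* (ENSMUSG00000022037, chr14:65968483-65981547, plus strand) encodes clusterin, which binds lipids and misfolded proteins. It was the most even of the markers, at 142, 177, 187 and 186 TPM with CNO and 156, 173, 185 and 177 TPM with vehicle. Both group means were 173 TPM, CNO sample 1 and vehicle sample 1 were the lowest, and the log2 fold change was 0.08 ± 0.13 (SE, edgeR adjusted p = 0.879).

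*S100b* (ENSMUSG00000033208, chr10:76253853-76261159, plus strand) was the only marker with its lowest TPM in vehicle sample 1. It was at 26.7, 25.0, 24.5 and 25.6 TPM in CNO samples 1 to 4 and at 18.8, 28.3, 24.6 and 24.1 TPM in vehicle samples 1 to 4. The lowest value was in vehicle sample 1, where 6 of the other markers had their highest, and all CNO samples lay inside the vehicle range. On log2 CPM, *Clu* was lowest there too, at 6.65 against 6.68 in CNO sample 1. The log2 fold change of *S100b* was 0.15 ± 0.14 (SE, edgeR adjusted p = 0.817), and without vehicle sample 1 it was 0.028. *S100b* lies opposite *Dip2a*, and *Gfap*, *Aqp4*, *Slc1a2*, *Aldh1l1* and *Glul* each have an annotated gene on the opposite strand, whose reads cannot be told apart where counting ignores strand. The strand setting is not given in the sources used here.

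**Figure D2:**
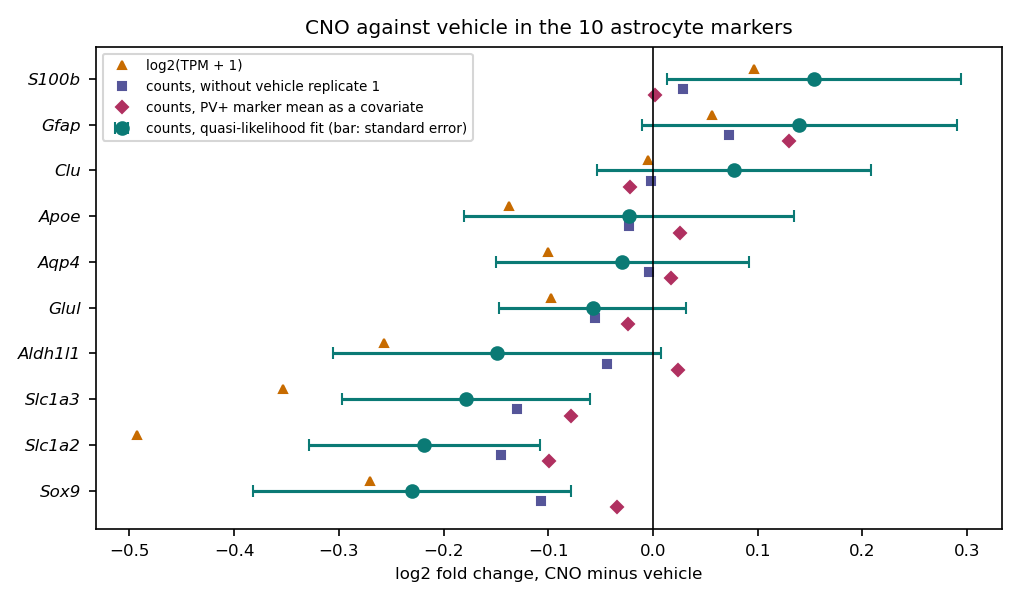
Log2 fold change of CNO against vehicle (x axis) for the 10 astrocyte markers, from the counts with the standard error as a bar, and as estimates from log2(TPM + 1), without vehicle sample 1, and with the mean of the PV+ interneuron markers as a covariate. None of the 10 passed the test in any of these 4 fits; the value of Slc1a2 moves from -0.22 on counts to -0.49 on TPM and to -0.10 with the covariate.

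The relative level of interneuron marker mRNA differed between samples. Each astrocyte marker was therefore set against the averaged log2 CPM of 11 genes that mark PV+ interneurons (*Pvalb*, *Gad1*, *Gad2*, *Slc32a1*, *Kcnc1*, *Kcnc2*, *Syt2*, *Erbb4*, *Lhx6*, *Kcns3* and *Nxph1*). That mean was 6.91 to 7.78 in CNO and 7.17 to 7.39 in 3 vehicle samples, and 5.92 in vehicle sample 1. All values come from the same libraries and share their scaling. Among all genes, 41.0% had an exact permutation p under 0.05 for this correlation over the 8 samples, and 5 of the 10 astrocyte markers did, a share near that background.

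Over the 8 samples, *Sox9*, *Slc1a2*, *Aldh1l1* and *Slc1a3* had the most negative r of the 10 markers with the PV+ marker mean. A negative r was not particular to astrocyte genes. Its median was -0.77 for the oligodendrocyte markers (10 of 10 below 0), -0.71 for microglia (10 of 10) and -0.75 for pyramidal cells (8 of 9). It was -0.41 for the 10 astrocyte markers (7 of 10) and 0.11 for the endothelial markers (3 of 10). *Sox9* had a Pearson r of -0.92 (exact permutation p = 7.44e-05, adjusted over all genes p = 0.00367; Spearman's rho -0.98, p = 0.000397), and leaving out CNO sample 4 and vehicle sample 1, the samples farthest from the median, r was -0.90. *Slc1a2* had an r of -0.92 (exact permutation p = 0.000546, adjusted p = 0.00688; rho -0.95, p = 0.00114) and -0.80 without those samples. The relation was thus also present for both genes without the sample that was poorest in *Pvalb*. *Aldh1l1* had an r of -0.79 (exact permutation p = 0.0095, adjusted p = 0.0382; rho -0.81, p = 0.0218) and -0.62 without the same samples. *Slc1a3* had an r of -0.77 (exact permutation p = 0.0307, adjusted p = 0.0866; rho -0.93, p = 0.00223) and -0.82 without them. For these 4 genes, r was also negative within each group, between -0.82 and -0.98 in CNO and between -0.73 and -0.996 in vehicle. *Glul*, *Aqp4* and *Apoe* were negative in both groups as well, between -0.40 and -0.79 in CNO and between -0.08 and -0.35 in vehicle. The 4 samples of a group are too few for a test.

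*S100b* was the marker with a high positive value, an r of 0.90 (exact permutation p = 0.0159, adjusted p = 0.055; rho 0.55, p = 0.171). Without CNO sample 4 and vehicle sample 1 its r was 0.40, so that the size of the relation rests on those samples, and without vehicle sample 1 alone it was 0.51. Within the groups its r was 0.94 in CNO and 0.89 in vehicle, again with 4 samples each. *Clu* had an r of 0.63 (exact permutation p = 0.0878, adjusted p = 0.185; rho 0.60, p = 0.132) and -0.18 without them. *Glul* (r = -0.49, rho -0.62), *Aqp4* (-0.34, rho -0.38), *Apoe* (-0.27, rho -0.60) and *Gfap* (0.17, rho -0.05) had exact permutation p values between 0.226 and 0.737. Without CNO sample 4 and vehicle sample 1, r was -0.64 for *Glul*, -0.26 for *Aqp4*, -0.69 for *Apoe* and -0.56 for *Gfap*. *Glul* and *Apoe* were then beside *Aldh1l1* (-0.62), so that the division of the markers by r rests in part on those samples. With the mean of the PV+ markers as a covariate in the edgeR fit, the log2 fold change with CNO was -0.10 for *Slc1a2*, -0.08 for *Slc1a3* and -0.034 for *Sox9*, and none passed the test.

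**Figure D3:**
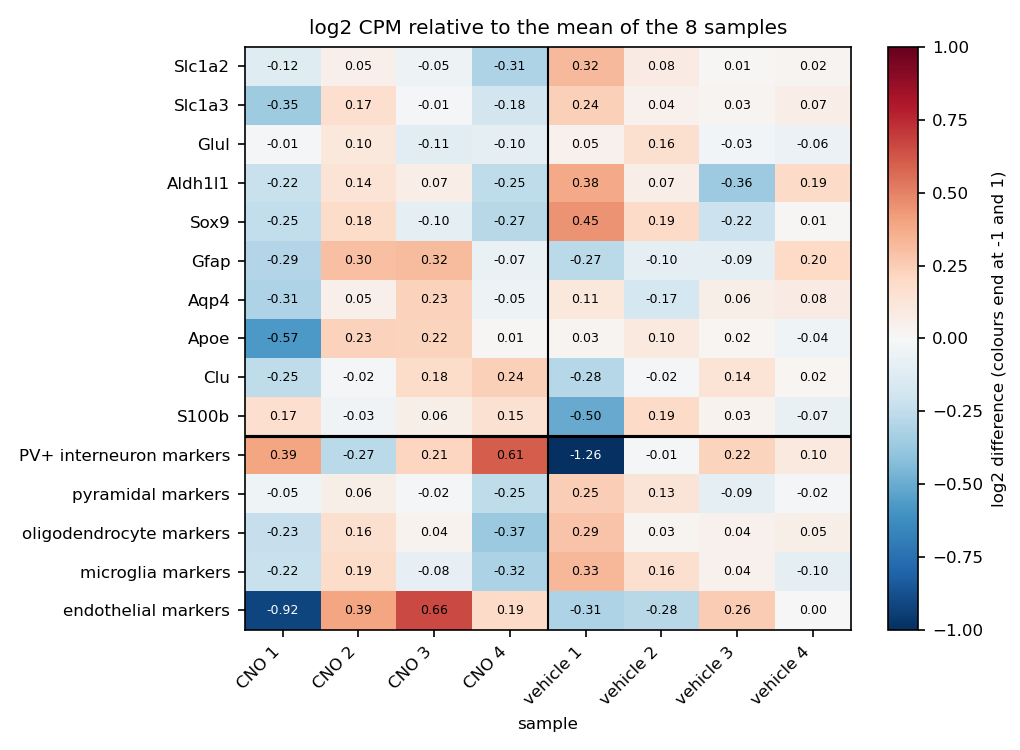
Difference in log2 CPM from the mean of the 8 samples for the 10 astrocyte markers (upper rows) and for the mean of 5 other marker lists (lower rows), with samples as columns and CNO left of the line. In vehicle sample 1, Sox9 is 0.45 above its mean and S100b 0.50 below it, and in CNO sample 1, Apoe is 0.57 below its mean.

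*Gfap*, *Aqp4*, *Apoe* and *Clu* had their lowest or second lowest log2 CPM in CNO sample 1, and so did *Slc1a3*, *Slc1a2* and *Sox9*. CNO sample 1 was also the sample with the lowest endothelial markers. The mean log2 CPM of 10 endothelial markers was 2.27 there and 2.88 to 3.85 in the others. This comparison was chosen after the values were seen. The r with the endothelial mean was 0.84 for *Apoe* (exact permutation p = 0.0107; rho 0.62, p = 0.115), 0.81 for *Aqp4* (exact p = 0.0162; rho 0.48, p = 0.243), 0.80 for *Gfap* (exact p = 0.0144; rho 0.90, p = 0.00456) and 0.79 for *Clu* (exact p = 0.0197; rho 0.74, p = 0.0458). These 4 of 10 had an unadjusted p under 0.05 against 4.31% of all genes, but none held after adjustment over all genes (adjusted p between 0.840 and 0.995). Without CNO samples 1 and 3, the farthest from the median, r was 0.34 for *Apoe*, 0.25 for *Aqp4*, 0.63 for *Gfap* and 0.64 for *Clu*, so that for the first pair the relation rests on those samples. Within CNO, r was between 0.82 and 0.99 for *Gfap*, *Aqp4*, *Apoe* and *Clu*. Within vehicle it was 0.43 for *Gfap*, 0.36 for *Aqp4*, 0.81 for *Clu* and -0.48 for *Apoe*, with 4 samples in each group. Over the 8 samples, *Slc1a2*, *Sox9*, *Aldh1l1* and *S100b* had values between -0.12 and 0.034. *Slc1a3* had 0.42 (0.82 within CNO) and *Glul* had -0.33. The part of vessel mRNA in this relation was not tested.

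**Figure D4:**
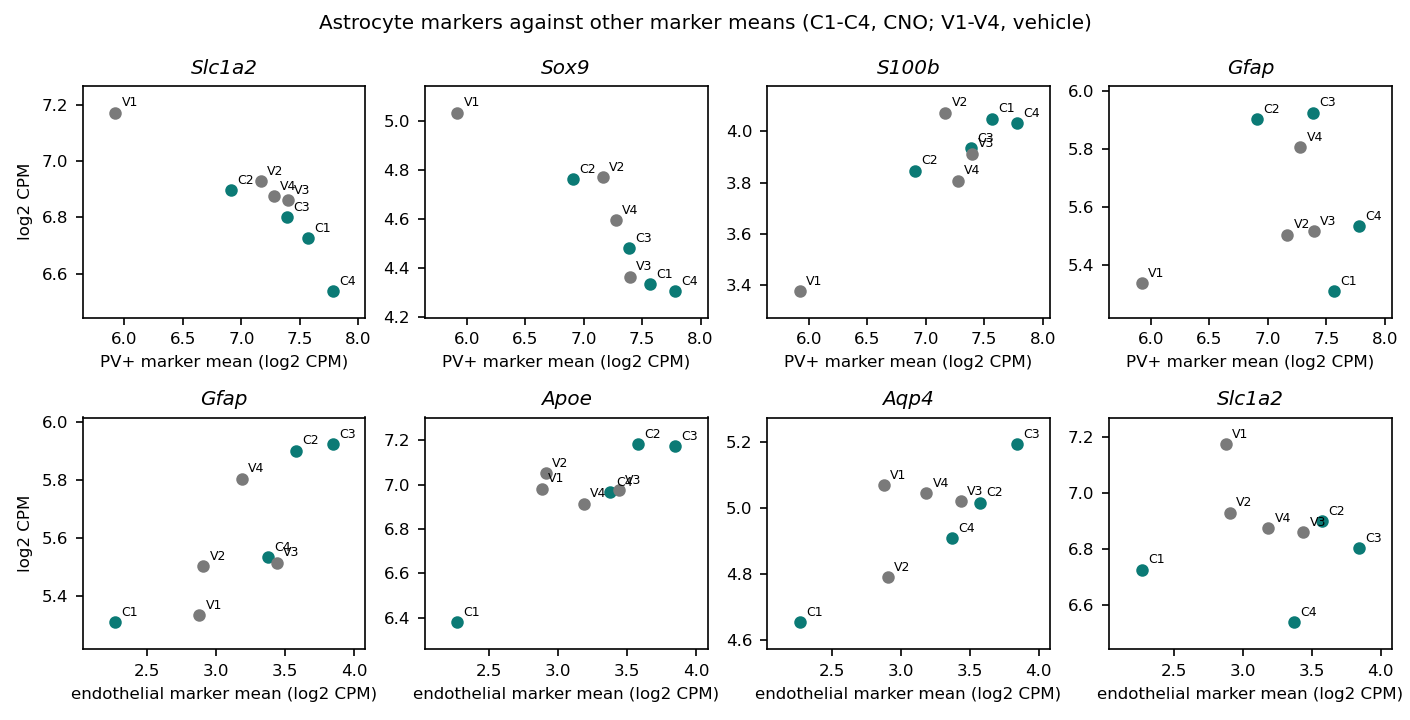
Log2 CPM of single astrocyte markers (y axes) against the mean log2 CPM of the PV+ interneuron markers (upper row) and of the endothelial markers (lower row), with 1 point for each sample. Slc1a2 and Sox9 fall along the PV+ axis (r = -0.92 for both), S100b is lowest in vehicle sample 1, and Gfap, Apoe and Aqp4 are lowest in CNO sample 1 together with the endothelial mean.

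The 10 markers did not vary as a single block. Among the 45 pairs of markers, r over the 8 samples was positive in 29 and negative in 16, with a median of 0.33. The highest was between *Aldh1l1* and *Sox9* (0.89) and the lowest between *Slc1a2* and *S100b* (-0.78). Among the 10 genes whose log2 CPM was most like the mean of the markers, out of 15163 other genes with a mean TPM above 1, were *Cav2* (r = 0.95), *Serpinb1a*, *Slc8b1*, *Gm7224*, *Nov*, *Cpq*, *Gja1*, *Ltc4s* and *Mvd* (0.93). Of these, *Gja1*, the astrocyte gap junction gene connexin 43, belongs to the wider astrocyte lists described next. Of the 100 most alike genes, 5 belonged to those lists, which hold 70 genes, and 0 to the PV+, pyramidal, oligodendrocyte, microglia or endothelial lists. These other lists hold only 9 to 11 genes each among the 15163, so that the 0 carries no information about them.

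Sequences before the start of 4 markers are shown because these genes differ in the samples they followed: the transporters *Slc1a2* and *Slc1a3* with *S100b*, which went the opposite way in vehicle sample 1, and *Gfap*, which was low with the endothelial markers. They come from a table of RefSeq promoters (GRCm38.p6) in which 7 of the 10 markers were matched, without *Sox9*, *Clu* and *Aqp4*. Each is the 250 bases before a RefSeq start, 5′ to 3′ on the strand of the gene, except *Slc1a2*, which was ended after 168 bases because an annotated exon follows. The starts of *Slc1a2* and *Gfap* lie inside the span that GENCODE gives these genes, so that other annotated starts lie upstream. Capitals mark the letters TTGGC or GCCAA (the core of sites for nuclear factor I), ACAAT or ATTGT (the core of SOX sites) and TTCNNNGAA (the core of STAT sites), each searched on both strands. Of all 32851 promoters, 41.5% held the nuclear factor I letters, 27.7% the SOX letters and 7.02% the STAT letters in their 250 bases.
Slc1a2, chr2:102706188-102706355, plus strand: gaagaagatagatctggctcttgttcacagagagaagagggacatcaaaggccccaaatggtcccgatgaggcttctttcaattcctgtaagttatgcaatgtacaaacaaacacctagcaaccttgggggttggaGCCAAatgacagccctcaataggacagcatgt
Slc1a3, chr15:8710808-8711057, minus strand: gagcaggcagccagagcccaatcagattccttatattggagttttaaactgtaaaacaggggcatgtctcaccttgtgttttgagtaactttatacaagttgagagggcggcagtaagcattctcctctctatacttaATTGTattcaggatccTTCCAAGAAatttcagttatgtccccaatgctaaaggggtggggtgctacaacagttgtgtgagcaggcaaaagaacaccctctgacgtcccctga
S100b, chr10:76253586-76253835, plus strand: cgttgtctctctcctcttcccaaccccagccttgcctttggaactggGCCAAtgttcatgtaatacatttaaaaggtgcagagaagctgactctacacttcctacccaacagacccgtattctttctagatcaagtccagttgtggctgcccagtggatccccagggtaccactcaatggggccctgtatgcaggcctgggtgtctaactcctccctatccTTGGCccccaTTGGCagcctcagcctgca
Gfap, chr11:102897201-102897450, minus strand: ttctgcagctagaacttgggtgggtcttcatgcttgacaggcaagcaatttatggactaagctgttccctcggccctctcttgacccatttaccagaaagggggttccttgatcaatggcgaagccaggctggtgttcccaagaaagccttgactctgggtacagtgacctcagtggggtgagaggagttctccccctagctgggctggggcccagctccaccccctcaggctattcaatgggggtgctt

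In these windows the *Slc1a2* sequence held 1 nuclear factor I match, *S100b* held 3, and *Slc1a3* held 1 SOX match and 1 STAT match. The *Gfap* window held none of them, which says only that these letters are not in it. The windows of the 2 transporters had no marked motif in common. A match in sequence does not show that a factor binds there.

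The wider set of astrocyte genes was taken in 6 lists by function, 70 genes in all, of which 68 were tested. None was called at an adjusted p under 0.05 (edgeR quasi-likelihood test). At an unadjusted p under 0.05, 3 had higher and 4 lower values with CNO, or 7 of 68, against 4.09% of all genes, and the groups did not overlap for 4 of 68, against 3.17%. The estimates were above 0 for 33 and below 0 for 35, with a median log2 fold change of -0.017. Leaving out single samples changed the number above 0 to between 26, without CNO sample 2, and 38, without CNO sample 1.

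Transport and ion handling genes had estimates on the same side of 0 as *Slc1a2*. In the transporter list (8 genes), 7 estimates were below 0, with a median of -0.16, and in the list of ion channels and junctions (10 genes) all 10 were, with a median of -0.13. The lists of 10 oligodendrocyte markers (median -0.23, 10 of 10 below 0), 10 microglia markers (-0.22, 10 of 10) and 9 pyramidal cell markers (-0.17, 8 of 9) had estimates of the same direction. The 11 PV+ interneuron markers had a median of 0.35, with all 11 above 0. Without vehicle sample 1 the medians were 0.13 for the PV+ markers (10 of 11 above 0), -0.15 for the oligodendrocyte, -0.11 for the microglia and -0.092 for the pyramidal markers, and -0.10 for the astrocyte transporters (5 of 8 below 0). The part of these other markers in the astrocyte values was not tested. The summed TPM of the PV+, oligodendrocyte, microglia and pyramidal lists did not differ between groups beyond the spread (exact permutation p between 0.20 and 0.286).

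Within these lists, *Grm3*, which encodes a glutamate receptor of astrocytes, was at 18.1, 22.7, 20.6 and 19.0 TPM with CNO and at 25.1, 22.8, 26.3 and 24.5 TPM with vehicle. Every CNO sample was below every vehicle sample, by a small margin for CNO sample 2, and the log2 fold change was -0.23 ± 0.09 (SE, edgeR adjusted p = 0.817). *Kcnj16*, a potassium channel gene, was at 2.15, 3.79, 3.71 and 3.33 TPM with CNO and at 5.60, 3.88, 4.32 and 4.66 TPM with vehicle, also without overlap (log2 fold change -0.44 ± 0.18, edgeR adjusted p = 0.817). *Gpc4*, a secreted synapse-promoting glypican, did not overlap either (-0.40 ± 0.17, edgeR adjusted p = 0.817). *Ppp1r3c*, a regulator of glycogen, did not overlap in TPM (log2 fold change -0.18 ± 0.10, SE, edgeR adjusted p = 0.817). *Fabp7*, a fatty acid binding protein of astrocytes, had a log2 fold change of -0.31 ± 0.14 (edgeR adjusted p = 0.817) with overlapping groups. None of the 5 was called after adjustment. Single samples moved 3 of them: the log2 fold change was -0.29 for *Kcnj16* without CNO sample 1, -0.12 for *Ppp1r3c* without vehicle sample 1 and -0.47 for *Fabp7* without CNO sample 3.

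Metabolic, nuclear and secreted genes were divided. In the metabolic list 6 of 9 estimates were above 0 (median 0.075), among the transcription factors 3 of 7 (median -0.043), and among secreted and surface proteins 3 of 11 (median -0.12). *Mt1*, a metal-binding metallothionein, was at 259, 193, 230.4 and 285 TPM with CNO and 125, 201, 193 and 197 TPM with vehicle. CNO sample 2 lay inside the vehicle range and the others above it, with a log2 fold change of 0.51 ± 0.19 (SE, edgeR adjusted p = 0.817). *Hopx*, a homeodomain gene, had a log2 fold change of 0.47 ± 0.20 (edgeR adjusted p = 0.817). Like *S100b*, both were lowest in vehicle sample 1, and without it the log2 fold change was 0.34 for *Mt1* and 0.31 for *Hopx*. Their r with the PV+ marker mean was 0.95 for *Mt1* and 0.93 for *Hopx*, or 0.70 and 0.69 without CNO sample 4 and vehicle sample 1. *Sparcl1*, which encodes hevin, had the highest r of the wider lists (0.98, and 0.90 without those samples). *Fgfr3*, a growth factor receptor of astrocytes, had the lowest (-0.94, and -0.51 without them). *Sparcl1* and *Fgfr3* were named after their values were seen.

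Genes linked with reactive astrocytes had 25 members, of which 23 were tested and *Timp1* and *Cxcl10* had too few reads. Estimates were above 0 for 20 of 23, with a median log2 fold change of 0.18, against 9 of 10 and a median of 0.29 for the endothelial markers. Without vehicle sample 1, 15 of 23 were above 0 with a median of 0.096, and without CNO sample 1, 21 of 23 with a median of 0.34. The endothelial median was 0.53 without CNO sample 1 and 0.083 without CNO sample 3. The median r of the 23 genes with the endothelial mean was 0.64, against -0.0010 for all genes tested, and *Vim*, a filament gene that vessel cells also express, had an r of 0.90 (named after its values were seen). The part of vessel mRNA in these values was not tested. *Lcn2*, which encodes the secreted protein lipocalin 2, was the only gene of the 23 with an unadjusted p under 0.05, against 4.09% of all genes. It was at 0.670, 4.69, 1.54 and 6.88 TPM with CNO and at 0.172, 1.46, 1.01 and 1.16 TPM with vehicle. CNO samples 2, 3 and 4 were above every vehicle sample and CNO sample 1 was below 3 of them. The log2 fold change was 1.88 ± 0.69 (SE, edgeR adjusted p = 0.817). Leaving out single samples moved that value between 1.26, without CNO sample 4, and 2.23, without CNO sample 1.

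**Figure D5:**
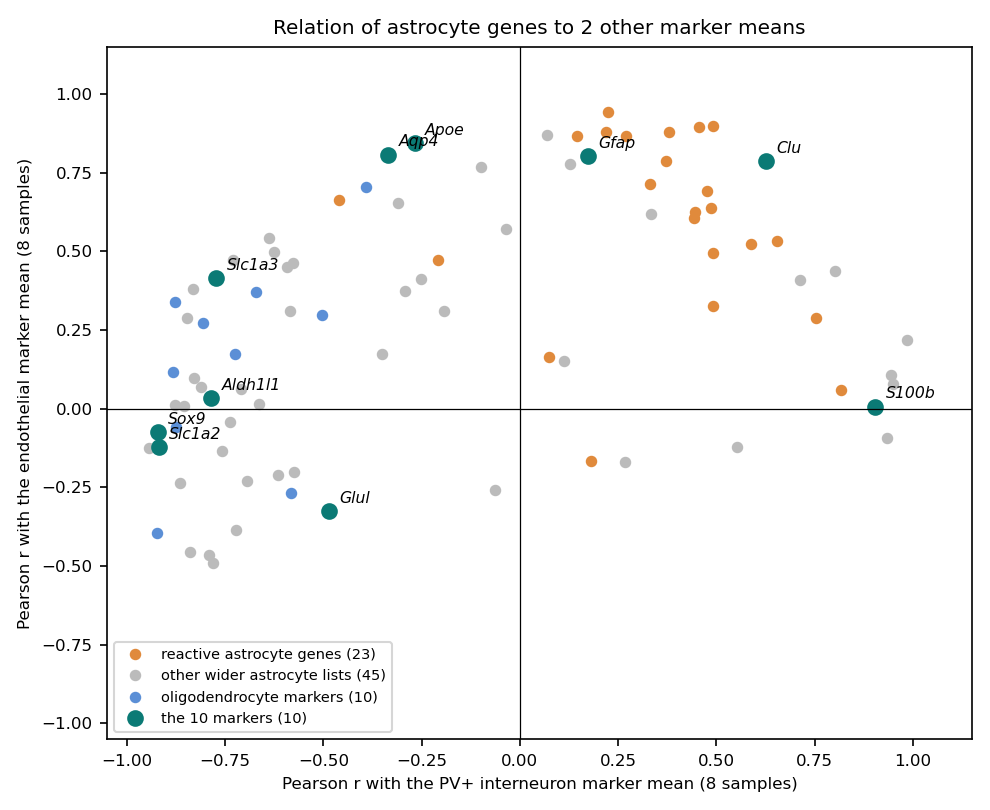
Pearson r over 8 samples with the PV+ interneuron marker mean (x axis) against that with the endothelial marker mean (y axis) for the 10 astrocyte markers, 23 reactive astrocyte genes, 45 genes of the other astrocyte lists and 10 oligodendrocyte markers, with 1 point for each gene. Slc1a2, Sox9 and Aldh1l1 lie on the left beside the oligodendrocyte markers, S100b on the right, and Gfap, Aqp4, Apoe and Clu in the upper part, where most reactive genes also lie.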

How the data were processed

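RNA-seq was performed on ribosome-associated mRNA of PV+ interneurons in 4 CNO and 4 vehicle samples, grouped by the treatment in their labels. The authors used Trim Galore for trimming, STAR for alignment to GRCm38 and Salmon for quantification. They deposited estimated counts without normalization or filter, and TPM calculated by the authors from counts and transcript length, which moves TPM where the assigned length differs between samples. Estimated counts were rounded and tested with edgeR 4.0.16 in R 4.3.3 (TMM, quasi-likelihood test, Benjamini-Hochberg adjustment). A gene was left out when 4 or more samples had under 10 counts, which kept 17495 of 45706. Log2 CPM used a prior count of 2. Two-sided exact permutation covered 70 assignments for differences and 40320 orders for correlations, whose p was adjusted over all genes tested. Depth was 44064161 to 49413273 counts. The tests were tried on simulated data. Alternatives were DESeq2 1.42.0, the likelihood ratio test with robust dispersion, limma 3.58.1 on log2(TPM + 1) and log2(TPM + 0.1), other scalings, no filter, covariates and each sample left out; the lists without each sample were added after seeing the data. Gene positions came from GENCODE M21, which holds 45143 of the identifiers. Plots were drawn with matplotlib 3.10.9.

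The members, the marker lists and the tests were chosen with earlier results of these data known. Named genes are the 10 markers, the genes of the wider lists with an unadjusted p under 0.05 or without overlap between groups, and the 10 genes most like the mean of the markers, of which 1 is not reported here. For other genes the text says that the choice followed their values. Replicate numbers in the labels are not stated to pair the groups.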

Additional observations from a re-analysis of the deposited data

Results flagged for a closer look

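Vehicle sample 1 was far from the other vehicle samples in 2 measures set beside the astrocyte markers. Its mean log2 CPM of the PV+ interneuron markers was 5.92, against 7.17 to 7.39 in the other 3, and the gap was 0.846 of the range of the group. Its mean log2 CPM of the oligodendrocyte markers was 5.22, against 4.96 to 4.99, with a gap of 0.888 of the range. Both exceed the critical value of Dixon's test at the 95% level for 4 samples. Chance flags about 1 in 20 groups, or 2.6 of the 52 groups examined, and 2 were flagged. None of the 10 astrocyte markers met this rule in either group.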

How the results depend on the processing

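Over 19 other settings, 180 of 190 recomputed fold changes of the 10 astrocyte markers kept their sign, and the lowest adjusted p was 0.473. The number of genes called among all tested was 0 with edgeR's quasi-likelihood test (716 at an unadjusted p under 0.05), 11 with DESeq2, 15 with the robust likelihood ratio test, 4 without the filter on low counts, 3 with replicates 1 and 2 against 3 and 4 as a factor, and 0 to 2 with single samples left out (2 without CNO sample 1); none was an astrocyte marker. Of the 10 markers, 1 had an unadjusted p under 0.05 with library size only (*Slc1a2*), and 0 to 3 did with single samples left out: *Sox9*, *Slc1a2* and *Slc1a3* without CNO sample 2, and *Sox9* without vehicle sample 3. Among all genes tested, 865 of 17495 had such a p with library size only. The numbers were 1699 of 17642 without CNO sample 2 and 885 of 17696 without vehicle sample 3. Signs changed for 4 markers. With the PV+ marker mean as a covariate, log2 fold changes were 0.018 for *Aqp4*, 0.024 for *Aldh1l1*, 0.026 for *Apoe* and -0.022 for *Clu*. *Apoe* was at 0.043 with robust dispersion, and *Clu* at -0.0043 on TPM with either 1 or 0.1 added. Leaving out single samples gave -0.13 to 0.060 for *Aqp4* and -0.11 to 0.13 for *Apoe* (both above 0 without CNO sample 1), and -0.0018 to 0.17 for *Clu* (below 0 without vehicle sample 1). The r of *Gfap* with the PV+ marker mean was -0.066 on log2(TPM + 1) and -0.55 to 0.37 with single samples left out, the lowest without vehicle sample 1. Scaling by library size only moved the median log2 fold change of all genes to -0.051, and log2(TPM + 1) to -0.063. Samples sharing a number did not deviate together in every pair (r of 0.026, -0.030, 0.16 and 0.24), so the numbers were not taken as pairs; with the replicate block, the log2 fold change of *Slc1a2* was -0.22 (adjusted p = 0.799) and 0 genes were called. Standard errors of 0.09 to 0.16 on the log2 scale limit what 4 samples a group can show for these genes.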
